A study of Homo sapiens with 6 samples.

Results

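Heat shock proteins and chaperonins, the genes whose products fold other proteins or keep them from aggregating, were examined in a renal cancer cell line with and without knockdown of YB1. Members were taken by gene symbol. They were the HSPA, HSPB, HSPD, HSPE, HSPH and HSP90 genes, the numbered DNAJA, DNAJB, DNAJC and CCT genes, TCP1, HSF1 and HSF2. HSPBP1 and HSPBAP1, whose products bind HSP70 and HSPB1, share the HSPB prefix and were included. The rule found 89 of the 20030 genes in the table. The cells were 786-O, an established renal cancer line that came from a clear cell carcinoma (ccRCC), at passages 16 to 18 in both groups. The shYB1 group had received a lentiviral short hairpin RNA against YB1, and the vector group a scrambled hairpin of nonsense sequence. Infected cells were selected with puromycin. Each group had 3 libraries, 6 in all, and nothing in the sources used here says whether these were separate cultures, so p-values measure the spread between the libraries, which may be technical. The design text of the series speaks of 3 independent hairpins against YB1, whereas the sample labels give a single shYB1 group, so which hairpin each library carried is not known. They were compared here as a single group of 3.

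As background, HSP70 proteins bind exposed hydrophobic stretches of unfolded chains in a cycle driven by ATP, which J-domain proteins (the DNAJ genes) start and nucleotide exchange factors end. HSP90 acts later, on nearly folded clients such as kinases and steroid receptors, while the chaperonins are ring-shaped chambers that enclose a chain, in mitochondria (HSPD1 with its lid HSPE1) or in the cytosol (TCP1 and the CCT subunits, whose best known clients are actin and tubulin). The transcription factor HSF1 drives many of these genes when proteins misfold.

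The labels were checked against the target of the hairpin. YBX1, which encodes YB1, stood in the vector libraries, numbered 1 to 3, at 366.5, 372.8 and 377.9 FPKM (fragments scaled to the length of the transcript and to the mapped fragments of the library), and in the shYB1 libraries at 166.7, 165.9 and 173.3 FPKM. No shYB1 library came near the lowest vector library, and the log2 fold change of YBX1 was −1.14 (standard error, SE, 0.031, adjusted p = 1.53e-08, limma). The renal label was checked too. The kidney lineage factors PAX8 and PAX2 had means of 77.1 and 17.1 FPKM with the vector and 77.5 and 19.0 FPKM with shYB1. Of the markers of differentiated nephron segments, LRP2, UMOD and AQP2 were listed at 0 in all 6 libraries, and the proximal tubule transporter SLC17A3 at 3.57 to 4.22 FPKM. Of the leukocyte markers, CD3E was at 0 throughout, and CD68, a lysosomal gene, made up nearly all of the summed level of 22.5 to 26.0 FPKM. The summed level of the 3 endothelial markers was at most 0.475 FPKM, and that of the 4 fibroblast and smooth muscle markers at most 2.98 FPKM. CD68 was lower with shYB1 (log2 fold change −0.16, adjusted p = 0.00969, limma), as was the renal cadherin CDH6 (−0.54, adjusted p = 3.92e-06, limma). These are bulk RNA values, in which fewer cells of a kind and less RNA per cell cannot be told apart.

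Together the 89 members made up 1.02%, 1.04% and 1.02% of the total FPKM with the vector and 1.10%, 1.09% and 1.11% with shYB1, in the order of the replicate numbers used throughout. The share was therefore higher in every shYB1 library than in any vector library. In terms of FPKM, the members summed to 2941 ± 65.3 in vector cells and to 3172 ± 57.8 in shYB1 cells (± SD of 3 libraries). The sum was uneven, since the 5 most abundant members held 47.3% of it. HSPB1 was the most abundant at a mean of 621.6 FPKM over the 6 libraries, followed by HSP90AB1 at 258, HSP90B1 at 256, HSPA5 at 189.8 and HSPD1 at 120.6 FPKM. HSP90AB1 and HSP90B1 changed places between the groups, as described with the HSP90 genes.

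For testing, log2(FPKM + 0.1) was compared with limma over the 10439 genes that averaged 1 FPKM or more, and a gene was called at an adjusted p under 0.05. On this scale the change of weakly expressed genes comes out too small. Of the 89 members, 65 passed the filter. By this test 23 of the 65 members were higher in shYB1 cells, against 18.7% of all tested genes, and 2 were lower, against 6.93% of all tested genes. In shares, 35.4% of the tested members were called higher and 3.08% lower, and 40 were not called. The median log2 fold change was 0.091 over the tested members and 0.055 over all tested genes. Changes were small. The called member with the largest rise gained 32.1%, and the median rise of the 23 higher members was 18.7%. A fold change of 2 with an unadjusted p under 0.05 was reached by 0 of the 65, against 0.22% of all tested genes. At any fold change, 29 of the 65 had an unadjusted p under 0.05 by limma, against 4073 of all 10439 tested genes. The shYB1 libraries all lay above the vector libraries in 31 of the 65 members, against 3138 of all 10439 tested genes (30.1%). They all lay below in 4 of the 65, against 1305 of the 10439 (12.5%).

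**Figure D1:**
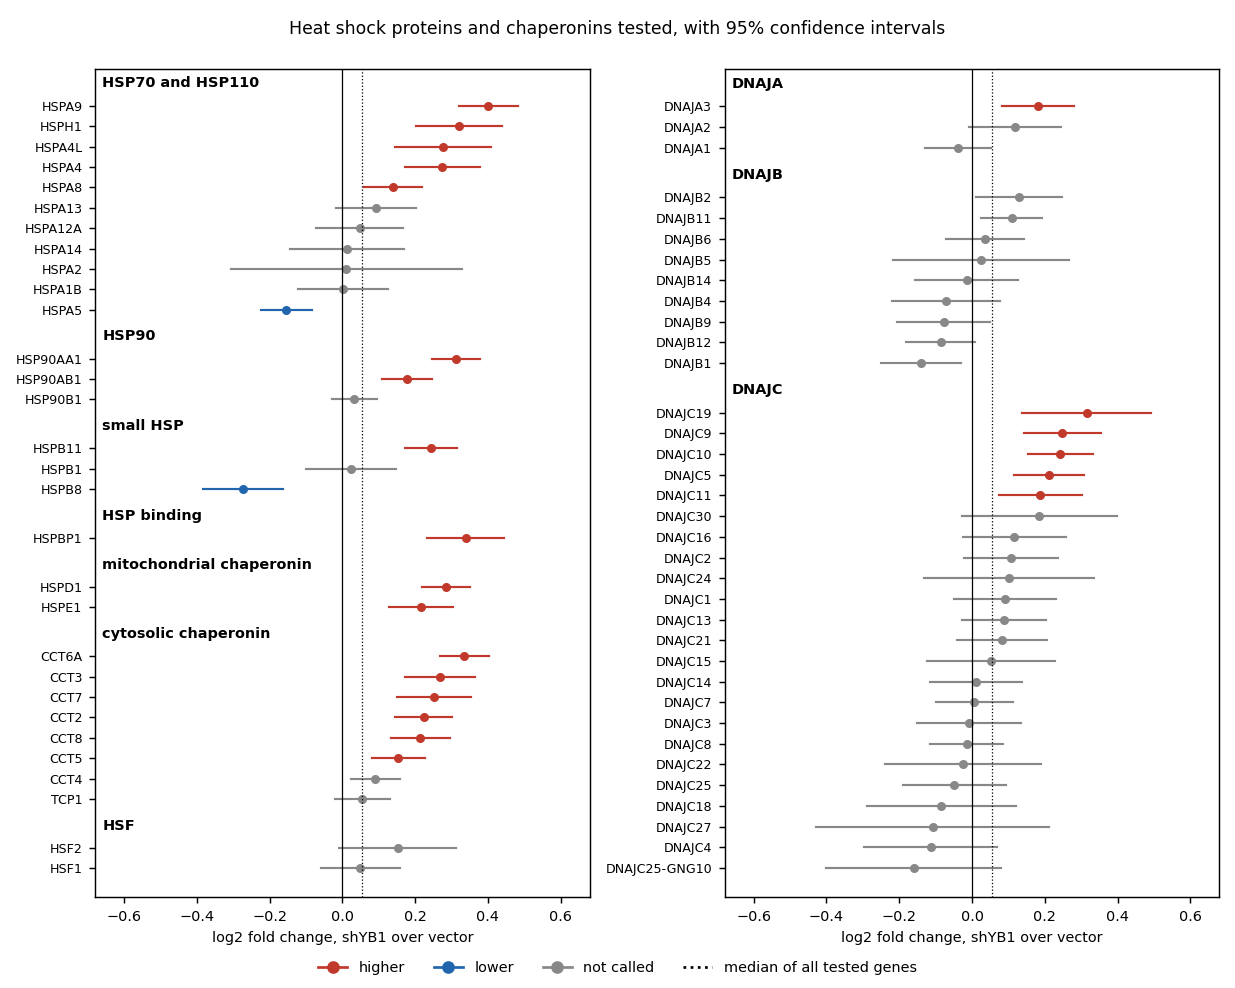
Log2 fold change (shYB1 over vector, x axis) of the 65 tested members by family, with 95% confidence intervals from limma over 3 libraries a group. Red marks the 23 members called higher, blue the 2 called lower and grey the 40 not called, and the dotted line is the median of all tested genes (0.055). After median-of-ratios scaling every point sits about 0.056 further to the left.

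The scaling of the libraries matters for changes of this size. After division by median-of-ratios size factors, which set the median log2 fold change of all tested genes to −0.00057, a shift of 0.056, 20 members were called higher against 11.2% of all tested genes and 4 were called lower against 12.2%. Higher genes thus made up 73.0% of the calls over all tested genes on the deposited scale and 47.9% after this scaling, whereas among the members they made up 92% and 83.3%. The same call held in 22 of the 25 called members. HSPA8, DNAJA3 and DNAJC11 lost theirs, and DNAJB1 and DNAJB12 became called lower. DNAJA3, DNAJC11 and DNAJB12 are named after their values were seen. The sign of 13 tested members, none of them called, also changed with this scaling. The median log2 fold change of the members was then 0.034.

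Calls were more frequent among abundant genes, where the spread between libraries was smaller. Among all tested genes with a mean of 1 to 5 FPKM the median standard error was 0.090, and 11.2% were called higher and 3.85% lower. At 20 to 100 FPKM these were 0.041, 29.4% and 11.6%, and at 100 FPKM or more 0.035, 18.6% and 22.2%. The members were more abundant than the rest, with a median of 16.1 FPKM against 7.30 FPKM for all tested genes. Within classes of abundance, which were chosen after the values were seen, 0 of 10 members at 1 to 5 FPKM were called higher. At 5 to 20 FPKM 9 of 30 were (20.8% of all genes in that class). So were 10 of 18 at 20 to 100 FPKM and 4 of 7 at 100 FPKM or more (18.6% of all genes in that class). Members called lower were 1 of 30 at 5 to 20 FPKM (6.21% of all genes in that class) and 1 of 7 at 100 FPKM or more (22.2%). The median log2 fold change of the members from 20 to 100 FPKM was 0.18 against 0.050 for all genes of that class, and at 100 FPKM or more it was 0.14 against −0.016.

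**Figure D2:**
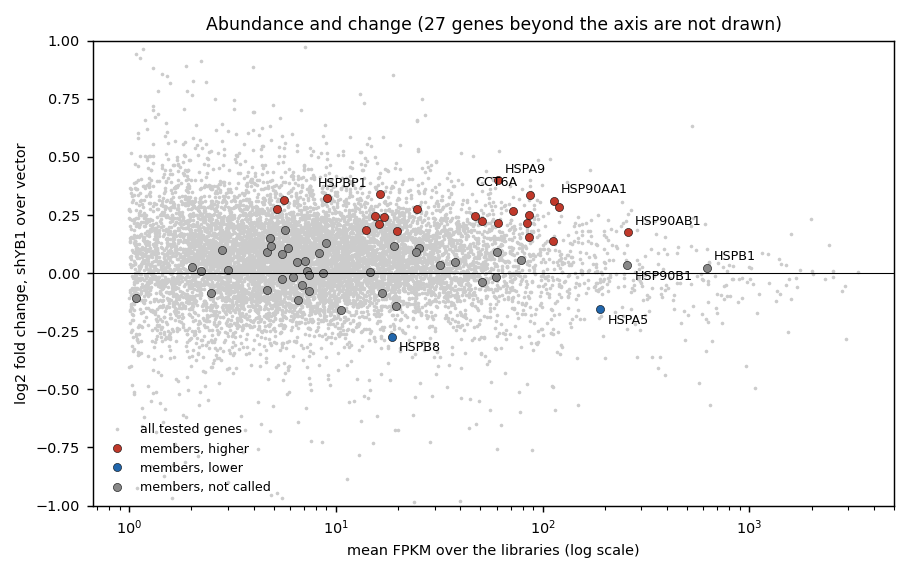
Mean FPKM over the 6 libraries (x axis, log scale) against log2 fold change of shYB1 over vector (y axis) for all tested genes in pale grey and for the 65 tested members in colour, with 27 genes beyond the y axis not drawn. The called members lie mostly above 10 FPKM, and HSPB1, the most abundant member, lies near 0 at 0.024.

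The HSP70 and HSP110 family held 15 genes in the table, of which 11 were tested, 5 called higher (45.5%, against 18.7% of all tested genes) and 1 called lower (9.09% against 6.93%). HSPA9, the HSP70 of the mitochondrial matrix that pulls precursors through the inner membrane, had the largest change of any called member. Its values were 51.3, 53.0 and 52.7 FPKM with the vector and 69.0, 71.9 and 66.6 FPKM with shYB1. The lowest shYB1 library was thus well above the highest vector library. The log2 fold change of HSPA9 was 0.40 (SE 0.037, 95% confidence interval 0.32 to 0.48, adjusted p = 6.53e-05, limma). HSPA5, the HSP70 of the endoplasmic reticulum (ER) also known as BiP, went the other way, with 195.6, 202.6 and 201.6 FPKM with the vector and 175.5, 183.4 and 179.9 FPKM with shYB1. Here every shYB1 library was below every vector library. The log2 fold change of HSPA5 was −0.15 (SE 0.032, adjusted p = 0.00595, limma).

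HSPA8, the constitutive cytosolic HSP70, had 103.7, 107.5 and 110.0 FPKM with the vector and 113.7, 120.3 and 119.7 FPKM with shYB1. The groups were close without overlapping. Its log2 fold change was 0.14 (SE 0.036, adjusted p = 0.0178, limma), and the call depended on the settings. After median-of-ratios scaling the log2 fold change was 0.082 (adjusted p = 0.0821, limma). Without a trend in the variance prior it was 0.14 (adjusted p = 0.0705, limma). Without vector replicate 1, shYB1 replicate 2 and shYB1 replicate 3 it was 0.12, 0.12 and 0.13 (adjusted p = 0.0701, 0.0732 and 0.0577, limma). HSPH1, HSPA4 and HSPA4L, cytosolic HSP110 relatives that act as nucleotide exchange factors of HSP70, were called higher. HSPH1 had 8.06 ± 0.388 FPKM with the vector and 10.1 ± 0.286 FPKM with shYB1 (± SD of 3 libraries), a log2 fold change of 0.32 (adjusted p = 0.00201, limma). HSPA4 and HSPA4L had log2 fold changes of 0.27 and 0.28 (adjusted p = 0.00216 and 0.00765, limma), and in all 3 genes the groups did not overlap.

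The heat-inducible HSP70 genes were low or did not pass the test. HSPA1B had 9.09, 8.62 and 8.34 FPKM with the vector and 8.57, 8.35 and 9.15 FPKM with shYB1, and the groups overlapped. Its log2 fold change was 0.00097 with a 95% confidence interval of −0.12 to 0.12 (adjusted p = 0.992, limma), and the sign turned under some settings. HSPA1A was listed at 0.114 to 0.231 FPKM and was not tested. HSPA1A and HSPA1B encode the same protein, and 71.3% and 73.5% of the 50-base words in their transcripts occur in another gene, so how fragments were split between them is uncertain. With the values of both added, the log2 fold change was −0.011 (adjusted p = 0.900, limma). HSPA6, strictly heat-induced in many human cells, was listed at 0.0169 to 0.166 FPKM in the 6 libraries, and 45.5% of its words occur in another gene.

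The promoters of the members were searched for the letters of 2 kinds of element. One is the inverted repeat at the core of the heat shock element that HSF1 binds, searched as GAANNTTC or TTCNNGAA, each of which reads the same on both strands, and copies of the 2 forms can overlap. The other is CCAAT or its complement ATTGG, the Y-box letters for which YB1 is named. RefSeq promoters of GRCh38.p14 were found for 79 of the 89 members, and the 250 bases before the start of 1 transcript of each were used. Of the 79 windows, 11 reach into the annotated gene and 67 overlap an annotated exon of this or another gene. The heat shock letters were in 15 of the 79 members (19.0%) and in 11.7% of all 27305 promoters. CCAAT or ATTGG was in 33 of the 79 (41.8%) and in 33.0% of all promoters. Of the 22 members called higher that had a promoter, 1 held the heat shock letters and 8 held the Y-box letters, and of 35 tested members that were not called, 6 and 14 did. Over the 8665 promoters of all tested genes the shares were 8.51% and 35.7%. A match is a description of the sequence and not a binding site, and an absent match says only that the letters are not in the window.

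The promoter of HSPA5, a member called lower, is shown because its window held 4 copies of the Y-box letters and overlaps no annotated exon. It lies on the minus strand at chr9:125241344-125241593 of GRCh38.p14 and ends at the base before the start of the gene, with CCAAT and ATTGG in capitals.
HSPA5: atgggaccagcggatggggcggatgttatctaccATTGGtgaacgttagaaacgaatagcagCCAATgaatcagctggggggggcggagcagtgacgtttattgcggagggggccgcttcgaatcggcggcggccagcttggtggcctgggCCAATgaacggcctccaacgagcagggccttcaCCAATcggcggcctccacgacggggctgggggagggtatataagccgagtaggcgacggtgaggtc
HSPA5 holds none of the heat shock letters. HSPB8, the other member called lower, had 1 copy of the heat shock letters and none of the Y-box letters. Members that were not called also held several copies of the Y-box letters. HSP90B1 held 5, and DNAJB1, DNAJB11 and DNAJC14 held 3 each. Whether the number of copies goes with the change was not tested. HSPA8 was the only member called higher with the heat shock letters, 4 copies in 2 overlapping pairs, and had 2 copies of ATTGG, but its window reaches into the annotated gene. The windows of HSPA9, HSPD1 and HSPE1 held neither. The promoter to print was chosen after the matches were seen.

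Of the 3 HSP90 genes, 2 were called higher, against 18.7% of all tested genes and 18.6% of those at 100 FPKM or more, where all 3 lie, and whether the change differed between them was not tested. HSP90AA1, the inducible cytosolic form, had 99.8, 101.0 and 101.7 FPKM with the vector and 124.9, 126.8 and 124.1 FPKM with shYB1. HSP90AB1, the constitutive cytosolic form, had 237.7, 242.4 and 246.9 FPKM with the vector and 268.9, 278.8 and 274.5 FPKM with shYB1. For both the groups were apart, with log2 fold changes of 0.31 (SE 0.029, adjusted p = 7.31e-05, limma) and 0.18 (SE 0.031, adjusted p = 0.00255, limma). HSP90B1, the ER form also called GRP94, had 254.4, 253.3 and 252.6 FPKM with the vector and 256.7, 259.95 and 261.4 FPKM with shYB1. Although these values did not overlap, the difference was small and was not called, with a log2 fold change of 0.033 (95% confidence interval −0.029 to 0.095, adjusted p = 0.421, limma) that became −0.024 after median-of-ratios scaling.

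Ratios between HSP90 genes within a library do not change with size factors. They were chosen after the values were seen and were not tested. HSP90AB1 to HSP90B1 was 0.934, 0.957 and 0.977 in vector cells and 1.05, 1.07 and 1.05 in shYB1 cells, so that HSP90B1 was the more abundant in each vector library and HSP90AB1 in each shYB1 library. HSP90AA1 to HSP90AB1 was 0.416 ± 0.00395 in vector cells and 0.457 ± 0.00643 in shYB1 cells (± SD of 3 libraries), and the groups did not overlap.

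**Figure D3:**
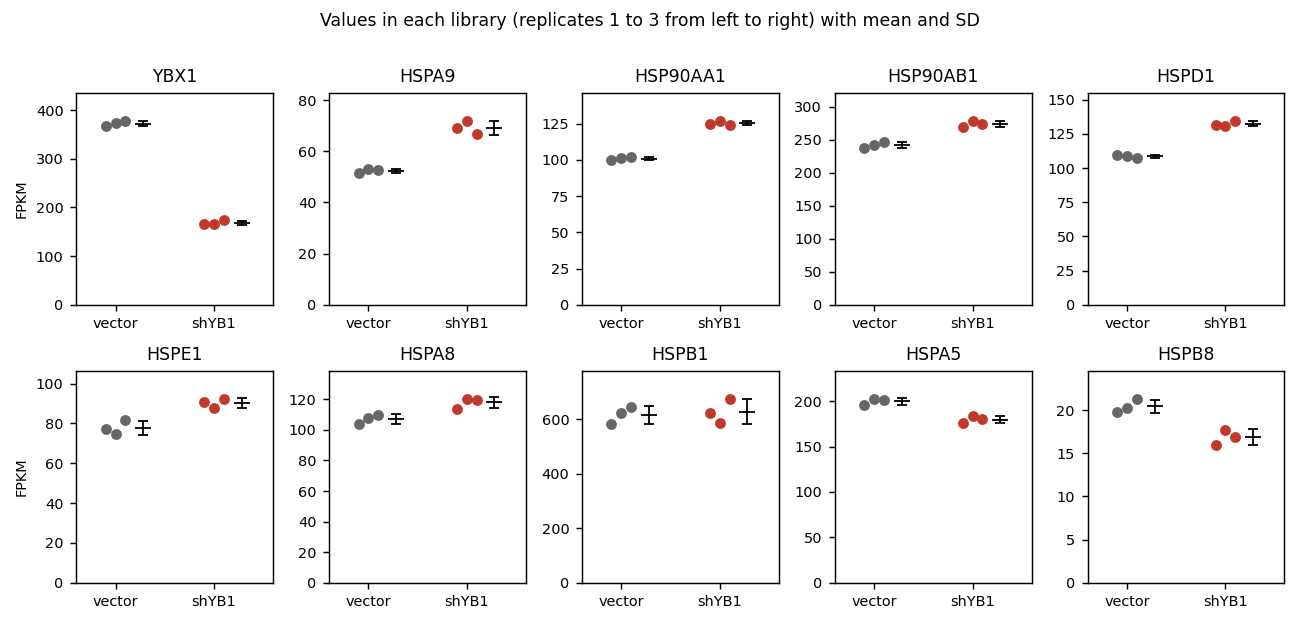
FPKM (y axis, from 0) in each of the 3 vector libraries (grey) and 3 shYB1 libraries (red) for YBX1 and 9 members, with the mean and SD beside the points. YBX1 falls by 1.14 on the log2 scale, HSPA9 shows the largest rise among the called members (log2 fold change 0.40), HSPB1 overlaps between the groups, and HSPA5 and HSPB8 are lower in each shYB1 library.

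Both subunits of the mitochondrial chaperonin were called higher, against 18.7% of all tested genes. HSPD1, which forms the ring, had 109.5, 109.2 and 107.5 FPKM with the vector and 131.7, 131.1 and 134.5 FPKM with shYB1. HSPE1, which forms the lid, had 77.2, 74.6 and 81.5 FPKM with the vector and 90.8, 87.6 and 92.3 FPKM with shYB1. In both genes all shYB1 libraries were above all vector libraries, with less spread in HSPD1. The log2 fold changes were 0.28 for HSPD1 (SE 0.029, adjusted p = 0.000126, limma) and 0.22 for HSPE1 (SE 0.039, adjusted p = 0.00345, limma). The ratio of HSPE1 to HSPD1 was 0.705, 0.683 and 0.758 in vector cells and 0.689, 0.668 and 0.686 in shYB1 cells, and these values overlapped. The difference of log2 ratios was −0.069 (two-sided exact permutation test, p = 0.3, where 3 libraries against 3 can give no p below 0.1), and it ranged from −0.10 to −0.027 with a library left out. A p of this size does not show that the ratio was the same.

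HSPD1 and HSPE1 stand head to head, with the RefSeq starts of the genes 104 bases apart on chromosome 2 and transcription leading away on either side. Neither motif searched above occurs between the starts. HSPE1 also has a readthrough neighbour, HSPE1-MOB4, which was listed at 0.0307 FPKM or less. Of the words in the transcripts of HSPE1-MOB4, 94.5% occur in another gene, so its values are uncertain.

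The cytosolic chaperonin is a double ring of 8 different subunits, made from TCP1, CCT2, CCT3, CCT4, CCT5, CCT6A, CCT7 and CCT8. All 8 were expressed within a narrow range. In vector replicate 1 the lowest was CCT2 at 45.8 FPKM and the highest CCT5 at 80.5 FPKM, and in shYB1 replicate 1 the lowest was again CCT2 at 54.2 FPKM and the highest CCT6A at 94.6 FPKM. The highest subunit exceeded the lowest by a factor of 1.64 to 1.83 over the 6 libraries. Summed over the 8, the FPKM were 531.7, 534.8 and 555.0 in vector cells and 611.1, 624.0 and 629.8 in shYB1 cells. The sum was higher in every shYB1 library than in any vector library.

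Of the 8 subunits, 6 were called higher, against 18.7% of all tested genes and 29.4% of those at 20 to 100 FPKM, where all 8 lie. The log2 fold changes of all 8 ranged from 0.055 to 0.34 with a median of 0.22. CCT6A changed most, from 77.4, 75.9 and 76.0 FPKM with the vector to 94.6, 97.4 and 97.5 FPKM with shYB1. Its groups were far apart relative to their spread, and its log2 fold change was 0.34 (SE 0.031, adjusted p = 6.05e-05, limma). CCT3 followed, with 64.8, 63.1 and 67.5 FPKM with the vector and 74.2, 79.2 and 82.2 FPKM with shYB1. CCT7 had 74.7, 76.3 and 84.9 FPKM with the vector, where replicate 3 stood above the others, and 94.3, 94.0 and 92.1 FPKM with shYB1. In CCT3 and CCT7 no vector library reached the lowest shYB1 library, and the log2 fold changes were 0.27 and 0.25 (adjusted p = 0.00177 and 0.00339, limma). CCT2, CCT8 and CCT5 had log2 fold changes of 0.22, 0.21 and 0.15 (adjusted p = 0.00174, 0.00234 and 0.00735, limma).

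The remaining subunits were not called. CCT4 had 57.6, 58.1 and 59.2 FPKM with the vector and 61.7, 62.1 and 62.4 FPKM with shYB1. These values did not overlap, but the log2 fold change was 0.091 (adjusted p = 0.0534, limma), and the adjusted p from limma ranged from 0.0446 to 0.145 when each library was left out in turn. TCP1, which gave the complex its name, had 76.3, 76.4 and 79.0 FPKM with the vector and 77.5, 81.8 and 81.4 FPKM with shYB1. Its groups overlapped, and its log2 fold change was 0.055 (adjusted p = 0.269, limma), or −0.0017 after median-of-ratios scaling, which left the same 6 subunits called higher. Whether the change differed between subunits was not tested. CCT6B, a testis form, had a mean of 0.812 FPKM and was not tested, and CCT8L2 was listed at 0 in all 6 libraries.

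**Figure D4:**
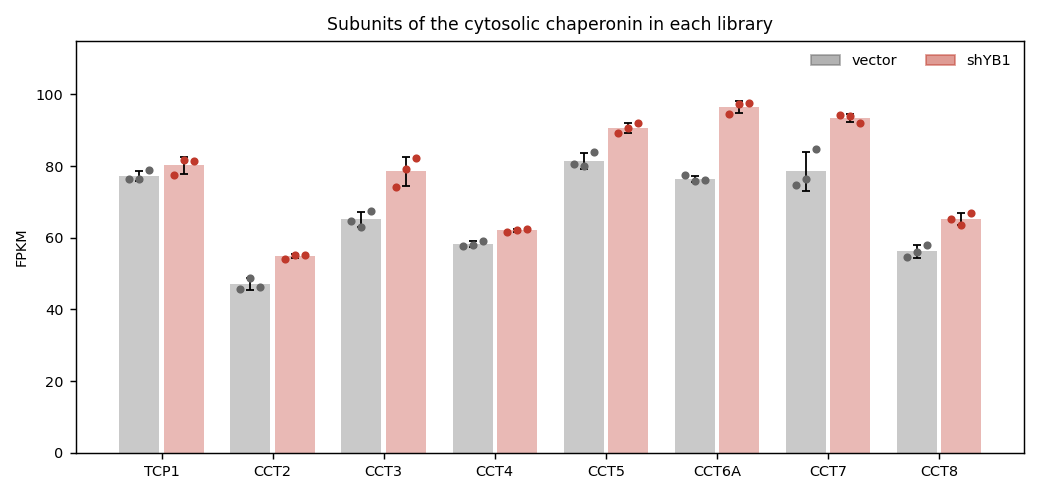
FPKM (y axis, from 0) of the 8 subunits of the cytosolic chaperonin, with bars for the mean of 3 libraries, error bars for the SD and points for the libraries of vector (grey) and shYB1 (red). The shYB1 bars are clearly taller for the 6 called subunits, with CCT6A the furthest apart (log2 fold change 0.34), and nearly level for TCP1 (0.055, and −0.0017 after median-of-ratios scaling).

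The small heat shock proteins hold unfolded chains without using ATP. Of the 8 HSPB genes in the table, 3 were tested: HSPB1, HSPB8 and HSPB11. HSPB1, also known as HSP27, had 581.3, 622.2 and 645.0 FPKM with the vector and 622.4, 584.4 and 674.6 FPKM with shYB1. The groups overlapped, with a log2 fold change of 0.024 (95% confidence interval −0.10 to 0.15, adjusted p = 0.782, limma) that was −0.033 after median-of-ratios scaling. HSPB8, which works with BAG3 in the removal of damaged proteins by autophagy, had the largest fall among the called members. Its values were 19.8, 20.2 and 21.3 FPKM with the vector and 16.0, 17.8 and 16.9 FPKM with shYB1. No shYB1 library reached the lowest vector library, and the log2 fold change of HSPB8 was −0.27 (SE 0.050, 95% confidence interval −0.38 to −0.16, adjusted p = 0.00334, limma). BAG3 itself had a log2 fold change of 0.15 and was not called (adjusted p = 0.0849, limma). An antisense gene, HSPB8-AS1, overlaps HSPB8, and the strand setting of the counting is not given in the sources used here, so fragments of the pair cannot be told apart.

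HSPB11 was called higher, with 43.1 ± 0.402 FPKM with the vector and 51.1 ± 0.712 FPKM with shYB1 (± SD of 3 libraries) and a log2 fold change of 0.24 (adjusted p = 0.000535, limma). Despite its symbol, its product is IFT25, a subunit of the intraflagellar transport machinery of cilia. HSPBP1, a nucleotide exchange factor of HSP70, had 14.6, 14.3 and 14.1 FPKM with the vector and 18.7, 17.1 and 18.7 FPKM with shYB1. Its groups were apart, and its log2 fold change of 0.34 (SE 0.048, adjusted p = 0.000867, limma) was the second largest rise among the called members. HSPBAP1, which binds HSPB1, was not tested at 0.367 to 0.602 FPKM.

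The DNAJ genes were the largest group. Of 46 in the table, 35 were tested and 6 called higher, which is 17.1% against 18.7% of all tested genes, and their median log2 fold change was 0.036. By class, 1 of 3 tested DNAJA genes and 5 of 23 tested DNAJC genes were called higher. Of the 9 tested DNAJB genes, 0 were called by limma and 3 had an unadjusted p under 0.05, against 4073 of all 10439 tested genes. DNAJB1, a heat-inducible partner of cytosolic HSP70, had 21.0, 18.9 and 21.2 FPKM with the vector and 18.3, 18.6 and 18.4 FPKM with shYB1. All shYB1 libraries were below the lowest vector library, replicate 2, by a small margin. Its log2 fold change was −0.14 (adjusted p = 0.0611, limma), which became −0.20 (adjusted p = 0.0195, limma) after median-of-ratios scaling and −0.19 (adjusted p = 0.0156, limma) without vector replicate 2. DNAJA1, another cytosolic partner, had 51.5 ± 2.29 FPKM with the vector and 50.1 ± 1.42 FPKM with shYB1 (± SD of 3 libraries) and was not called (log2 fold change −0.039, adjusted p = 0.518, limma).

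Among the DNAJC genes, DNAJC19 and DNAJC9 were named by rule. DNAJC19 belongs to the motor that imports proteins into mitochondria, where it stimulates HSPA9. It had 5.29, 5.17 and 4.43 FPKM with the vector and 6.60, 5.74 and 6.24 FPKM with shYB1. The groups did not overlap, and the log2 fold change was 0.32 (SE 0.080, adjusted p = 0.0163, limma), but the fit without shYB1 replicate 1 gave 0.27 (adjusted p = 0.0617, limma). DNAJC9, a histone chaperone that recruits HSP70, had a log2 fold change of 0.25 (adjusted p = 0.00444, limma). The others called were DNAJC10, DNAJC5, DNAJC11 and DNAJA3, with log2 fold changes of 0.24, 0.21, 0.19 and 0.18, named after their values were seen. DNAJC11 and DNAJA3 were called in 4 and 5 of the 6 fits that left out a library, where their smallest log2 fold changes were 0.14 and 0.16. Because DNAJC25-GNG10 is a readthrough gene with 93.4% of its words in another gene, its log2 fold change of −0.16 (adjusted p = 0.303, limma) is uncertain.

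Members were also grouped by the compartment of their products. Of 8 tested members of the mitochondrial list, 6 were called higher (HSPA9, HSPD1, HSPE1, DNAJA3, DNAJC11 and DNAJC19), or 75% against 18.7% of all tested genes, with a median log2 fold change of 0.20. Of 10 tested members of the ER list, 1 was called higher (DNAJC10, a reductase of misfolded chains) and 1 lower (HSPA5), 10% each against 18.7% and 6.93% of all tested genes, with a median of 0.012. The 47 tested members in neither list had 16 called higher and 1 lower, with a median of 0.087, against 0.055 over all tested genes. After median-of-ratios scaling, 4 of the 8 mitochondrial members were called higher (11.2% of all tested genes), with a median of 0.14, and in the ER list 1 was called higher and 2 lower (12.2% of all tested genes), with a median of −0.044. The difference between the lists was not tested.

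The FPKM of each list were also summed. The mitochondrial list summed to 287.6, 285.6 and 292.2 FPKM with the vector and to 346.5, 345.2 and 352.7 FPKM with shYB1, whereas the ER list summed to 553.7, 565.3 and 559.8 FPKM with the vector and to 543.7, 555.4 and 551.9 FPKM with shYB1. Groups were apart for the mitochondrial sum and overlapped for the ER sum. As a ratio chosen after the values were seen, and not tested, HSPA9 to HSPA5 was 0.263, 0.261 and 0.261 in vector cells and 0.393, 0.392 and 0.370 in shYB1 cells. The vector libraries differed in the third digit, and each shYB1 library was higher.

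**Figure D5:**
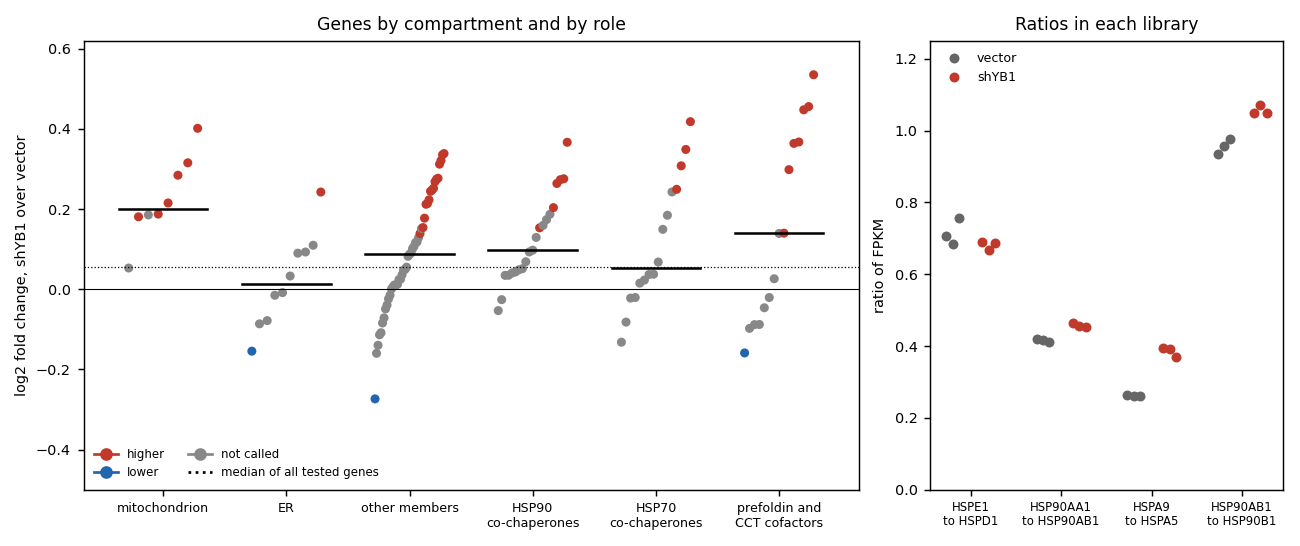
Left, log2 fold change (shYB1 over vector, y axis) of tested members by compartment and of tested co-chaperones by partner, with a black bar at each median and the median of all tested genes dotted. Right, ratios of FPKM between pairs of members in each of the 3 vector (grey) and 3 shYB1 (red) libraries. The mitochondrial median is 0.20 and the ER median 0.012 (0.14 and −0.044 after median-of-ratios scaling), and HSPE1 to HSPD1 overlaps between the groups while the other ratios do not.

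HSF1 and HSF2 were not called. HSF1 had 37.2, 35.9 and 38.5 FPKM with the vector and 39.7, 35.7 and 40.1 FPKM with shYB1. HSF2, a relative active in development, had 4.70, 4.30 and 4.68 FPKM with the vector and 4.87, 4.81 and 5.57 FPKM with shYB1. HSF1 overlapped between the groups and HSF2 did not. The log2 fold changes were 0.050 (adjusted p = 0.498, limma), or −0.0071 after median-of-ratios scaling, and 0.15 (adjusted p = 0.150, limma). With a library left out they ranged from 0.019 to 0.10 for HSF1 and from 0.086 to 0.19 for HSF2. Of 5 further genes related to these factors, 3 were tested and 1, HSF4, was called lower (6.93% of all tested genes), with a log2 fold change of −0.25 (adjusted p = 0.0226, limma) and a call that was lost in 4 of the 6 fits that left out a library. HSF4 was named after its values were seen. The mRNA of a factor does not measure its activity, which for HSF1 is set largely by its binding to chaperones and by modification.

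A list of 24 genes that HSF1 is known to induce was described beside them, 13 of which are members. Of 21 tested, 9 were called higher (42.9%, against 18.7% of all tested genes) and 1 lower (4.76% against 6.93%), with a median log2 fold change of 0.14. The tested genes of the list were abundant, with a median of 39.8 FPKM against 7.30 FPKM for all tested genes. Of all genes at 20 to 100 FPKM, 29.4% were called higher. Outside the members, 10 were tested, 2 called higher (20%) and 1 lower, with a median of 0.095. The 9 included HSP90AA1, HSP90AB1, HSPA4L, HSPA8, HSPD1, HSPE1 and HSPH1, and outside the members CACYBP, an adaptor of ubiquitin ligases (log2 fold change 0.41, adjusted p = 0.000188, limma). HSPA1B and DNAJB1 were tested and not called, and HSPA1A and HSPA6 were not tested. SERPINH1, a collagen chaperone of the ER, was lower, with 48.0, 47.4 and 47.0 FPKM with the vector and 42.3, 42.8 and 45.4 FPKM with shYB1. Its groups did not overlap and its log2 fold change was −0.13 (adjusted p = 0.0299, limma), but the call was lost in 4 of the 6 fits that left out a library. After median-of-ratios scaling, 8 genes of this list were called higher and 3 lower, against 11.2% and 12.2% of all tested genes.

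Co-chaperones that the symbols leave out were taken from a list of 53 genes, of which 52 were in the table and tested. Of these, 17 were called higher and 1 lower, or 32.7% and 1.92%, with a median log2 fold change of 0.095 against 0.055 over all tested genes, and after median-of-ratios scaling 15 were called higher and 2 lower, against 11.2% and 12.2% of all tested genes. Among partners of HSP90, 6 of 21 were called higher (28.6%), and among partners of HSP70, 4 of 16 (25%), against 18.7% of all tested genes. Of 15 genes for prefoldin, which hands chains to the cytosolic chaperonin, and for other cofactors of that chaperonin, 7 were called higher (46.7%) and 1 lower. PFDN2 had 21.8, 22.6 and 17.1 FPKM with the vector and 32.1, 29.7 and 27.0 FPKM with shYB1. PFDN6 had 25.2, 19.6 and 25.7 FPKM with the vector and 32.0, 33.7 and 30.6 FPKM with shYB1. These prefoldin subunits varied between libraries, yet the groups stayed apart, and their log2 fold changes were 0.54 (SE 0.11, adjusted p = 0.00750, limma) and 0.46 (SE 0.095, adjusted p = 0.00957, limma). PFDN1, a further prefoldin subunit, and TXNDC9, which binds the chaperonin, had 0.37 and 0.45 (adjusted p = 0.00176 and 0.000358, limma).

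Not every prefoldin subunit went up. PFDN5, the most abundant at 117.2, 108.0 and 127.0 FPKM with the vector, had 105.2, 104.9 and 104.7 FPKM with shYB1. Its groups did not overlap, its log2 fold change was −0.16 (adjusted p = 0.0463, limma), and the call was lost in 5 of the 6 fits that left out a library. Of the HSP70 partners, BAG2, which slows the ubiquitination of clients by the HSP70 partner STUB1, had a log2 fold change of 0.42 (adjusted p = 0.00906, limma). GRPEL1 and GRPEL2, the exchange factors of HSPA9 in mitochondria, had 0.31 and 0.35 (adjusted p = 0.00179 and 0.000931, limma) and were named after their values were seen.

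In the annotation that came with the table, 33 of the 89 members carried a KEGG pathway and 25 carried that of protein processing in the ER, in which 20 were tested, 8 called higher and 1 lower, against 18.7% and 6.93% of all tested genes. That pathway also takes in cytosolic chaperones, so its count is not one of ER proteins. Members were spread over 21 chromosomes. In the RefSeq annotation 14 of the 25 called members overlap another gene and 8 of them a protein-coding one, among them HSP90AA1 with WDR20 and DNAJC11 with THAP3, and their values could include fragments of the neighbour. The share of words found in another gene was 2.95% for HSPA9, 5.35% for CCT6A, 11.3% for HSP90AA1, 13.2% for HSPD1 and 16.6% for HSP90AB1.

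The 24 members that were not tested were low in both groups. Of these, 6 were listed at 0 in all 6 libraries, for example CCT8L2, DNAJB3, DNAJB8, DNAJC5G and HSPB3. The other 18 had a mean above 0 and under 1 FPKM. They include the muscle genes HSPB6 and HSPB7 and, among the DNAJ genes, DNAJC6, the auxilin that uncoats clathrin in neurons. The alpha-crystallin gene CRYAB, a small heat shock protein that the symbols leave out, was listed at 0.371 to 0.832 FPKM, and CRYAA at 0.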

How the data were processed

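RNA of 786-O cells was sequenced in 3 vector and 3 shYB1 libraries. The authors deposited FPKM per gene and library, with no counts, so the depth is unknown and no counting interval was computed. The submitters' processing notes name Trimmomatic, HISAT2, Cufflinks, HTSeq and DESeq and the build GRCh38, with no versions. The spacing of values under 0.08 FPKM put the relative depth at about 0.973 to 1.09 times that of shYB1 replicate 1, in a range widened after the histograms were seen. All 6 columns were used, and 0 pairs of libraries held identical values. FPKM totals ran from 282736 to 295887.

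From the deposited FPKM, log2(FPKM + 0.1) was compared between groups over the 10439 genes that averaged 1 FPKM or more, using limma 3.58.1 in R 4.3.3 (trend, robust prior, two-sided, no replicate block) and Benjamini-Hochberg adjustment over all of them. The step was tested on simulated data. The methods of the study select on a fold change of 2 and P under 0.05, applied here to the unadjusted p. The HSPE1 to HSPD1 ratio was compared by an exact permutation test. Python 3.11.15, NumPy 2.4.6, pandas 2.3.3 and matplotlib 3.10.9 were used otherwise. Coordinates and promoters are from RefSeq (GRCh38.p14), and shared 50-base words from GENCODE transcripts. In 69 of 79 promoters compared, the start of a transcript of the gene was found on the given strand.

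Genes named are YBX1, the founding members of each family, the 12 most raised and 12 most lowered called members whose groups do not overlap, the 2 most abundant of each family, and the 5 most raised and 5 most lowered called genes of the co-chaperone and heat shock lists. Any other gene was named after its values were seen. The members and lists were chosen with earlier results of these data known. Alternatives were other pseudocounts, filters, scalings and variance prior, a replicate block, each library left out, HSPA1A and HSPA1B summed, and protein-coding members only.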

Additional observations from a re-analysis of the deposited data

How the results depend on the processing

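The share of all tested genes that was called moved between the alternatives, and the filters changed how many genes were tested. In the main fit 18.7% of all tested genes were called higher and 6.93% lower, and after median-of-ratios scaling 11.2% and 12.2%. For most other alternatives the share is not given here, so the counts alone do not set the members apart from other genes. Over 16 alternatives the members called higher ranged from 20 to 25. Those called lower were 4 after median-of-ratios scaling, 4 after quantile normalization and otherwise 2 or 3. Co-chaperones called lower numbered 1 in the main fit, 0 with no filter, 2 after median-of-ratios scaling, 0 without a trend in the variance prior, and 0 to 1 with a library left out. In the heat shock list, 1 was lower in the main fit, 0 with no filter, 2 with a filter at 5 FPKM, 3 after median-of-ratios scaling, 3 on a common total, 3 after quantile normalization, 0 without that trend, and 0 to 1 with a library left out. With a library left out, YBX1 ranged from −1.16 to −1.13.

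The sign of HSPA1B turned to −0.055 after median-of-ratios scaling, −0.0033 on a common total, −0.055 after quantile normalization and −0.011 with HSPA1A added, and ranged from −0.036 to 0.034 with a library left out. Median-of-ratios scaling also turned HSP90B1 (−0.024), HSPB1 (−0.033), TCP1 (−0.0017) and HSF1 (−0.0071). HSPB1 ranged from −0.030 to 0.074 with a library left out. For 38 named genes, 528 of 569 values kept call and direction. The cause was not tested.

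With a replicate block, which pairs libraries by number, 24 members were called higher and 2 lower, 18 co-chaperones higher and 1 lower, and 9 genes of the heat shock list higher and 2 lower, against 2074 and 760 of all tested genes. Deviations from the group mean were also correlated between vector and shYB1 libraries. For libraries of the same number the correlations were −0.169, −0.0590 and −0.00824, and no library correlated best with its own number. The labels give only a replicate number, and whether libraries of the same number were handled together was not tested.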
